A study of Mus musculus with 36 samples.

Results

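Type I interferon-induced genes were followed in brain RNA of APP/PS1 and wild-type (WT) mice at 6 and 9 months of age. The set is a list of 31 genes, and its members were taken by symbol from the deposited mRNA table, with transcript values summed per gene. Of the 31 genes, 30 were matched among 22154 mRNA genes, and Mx2 was not analysed here. A mean of at least 0.5 FPKM (fragments per unit of transcript length, scaled to the mapped fragments of the library) over the 12 libraries was needed for testing. It was reached by 22 members and by 13593 genes in all. The other 8 matched members, Usp18, Dhx58, Zbp1, Oas1a, Oas2, Mx1, Rsad2 and Ifi44, lay below it and are described by their levels.

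APP/PS1 mice express APP695swe and PS1-dE9, mutant transgenes that raise amyloid production, and are used as a model of amyloid plaque formation. The study set out to profile their brain transcriptome against that of wild-type controls at both ages. All mice carry the C57BL/6 strain label, and the 4 groups were WT at 6 months, APP/PS1 at 6 months, WT at 9 months and APP/PS1 at 9 months, with 3 long RNA libraries in each. The labels name no sex, no brain region and no promoter for the transgenes, and they are silent on whether each library is from its own animal. A p-value here reflects the scatter of libraries within groups, pooled over all 4 groups and moderated by that of other genes. It does not measure the scatter of the compared groups alone. Some or all of the pooled scatter may be technical, since libraries may not be from separate animals.

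Type I interferons are secreted when cells sense foreign or misplaced nucleic acids. They bind the receptor Ifnar1/Ifnar2, which signals through the kinases Jak1 and Tyk2 to a complex that contains Stat2 and Irf9. That complex binds a DNA element, the interferon-stimulated response element (ISRE), in front of the genes it induces. In the brain, microglia, astrocytes, endothelium and neurons can all respond, and an interferon-responsive state of microglia is known from mice with amyloid plaques.

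The summed FPKM of the mRNA genes ran from 292540 to 301778 per library, and 16757 to 17062 genes were above 0. No read counts accompany these values, so the depth is unknown. The genotype labels were checked by App, which lay at 437 ± 3.79 FPKM (SD, n = 3) in WT and 983 ± 21.0 in APP/PS1 at 6 months, and at 448 ± 4.67 and 1002 ± 28.0 at 9 months. The extraction protocol names retinas while the tissue label reads brain: 6 photoreceptor markers summed to 0.619 to 1.36 FPKM per library and 6 neuronal markers to 1655 to 1879. Libraries differed in choroid plexus markers: 12 of them summed to 6.45 FPKM in WT 1 and 14.1 in WT 3 at 6 months, and to 79.0 to 359 in the other libraries. Markers of T, B and NK cells summed to 0.0587 to 0.260 FPKM.

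Promoter sequence is shown first, since the element named above is what the interferon-activated complex is known to bind. RefSeq promoters (build GRCm38.p6) were matched for 22 of the 31 members. These are not the same 22 as those tested: they include Oas1a, Rsad2 and Ifi44 and lack Ifi27, Rtp4 and Parp14. The 250 bases before each listed start site were searched on both strands for the core of an ISRE. This core is the block GAAA, followed after 2 free bases by GAAA again. It was found in 8 of 22 members (36.4%) and in 936 of 27025 genes of the promoter table (3.46%). The share was 40.5% (17 of 42) in a list of other interferon-induced genes and 3 of 25 genes held it in a list of those that make or relay the interferon signal. The 8 members were Bst2, Ifit1, Ifit3, Isg15, Oas1a, Rsad2, Stat2 and Trim30a. A match is a description of letters and not evidence of binding.

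The promoters of Ifit3 and Bst2 are printed whole because these members are described in detail below and hold matches. The strand is that of the gene, and capitals mark the matches or, where the match is on the other strand, their reverse complement. Ifit3 holds 2 separate matches in chr19:34583279-34583528 (plus strand). Bst2 holds 2 overlapping matches in chr8:71537473-71537722 (minus strand).
Ifit3: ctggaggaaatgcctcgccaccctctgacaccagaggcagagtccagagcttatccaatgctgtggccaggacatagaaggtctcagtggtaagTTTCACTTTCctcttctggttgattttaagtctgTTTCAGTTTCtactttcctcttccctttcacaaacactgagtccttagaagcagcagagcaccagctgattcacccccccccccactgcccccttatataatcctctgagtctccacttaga
Bst2: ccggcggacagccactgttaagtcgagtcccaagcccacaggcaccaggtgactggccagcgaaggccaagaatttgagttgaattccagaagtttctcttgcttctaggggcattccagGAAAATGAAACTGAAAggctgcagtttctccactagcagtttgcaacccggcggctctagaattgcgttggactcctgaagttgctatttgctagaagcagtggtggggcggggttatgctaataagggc

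The other 6 members with a match are shown only around it, to compare how the element is spaced. Ifit1 repeats both 10-letter runs of Ifit3, a short distance apart, at chr19:34640775-34640823 (plus strand). Isg15 has 3 overlapping matches in chr4:156200865-156200906 (minus strand), and Oas1a has 2 in chr5:120907526-120907555 (minus strand), directly before its start site. Rsad2 at chr12:26456553-26456582 (minus strand), Stat2 at chr10:128270266-128270295 (plus strand) and Trim30a at chr7:104465210-104465239 (minus strand) have 1 match each. The window before another listed start site of Trim30a held no match.
Ifit1: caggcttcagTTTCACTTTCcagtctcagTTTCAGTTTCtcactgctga
Isg15: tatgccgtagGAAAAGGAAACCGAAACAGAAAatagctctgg
Oas1a: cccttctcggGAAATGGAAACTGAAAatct
Rsad2: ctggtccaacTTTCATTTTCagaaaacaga
Stat2: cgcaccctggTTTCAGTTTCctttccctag
Trim30a: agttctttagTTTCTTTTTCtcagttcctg

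A second element, TTCNNNGAA, the core of the gamma-interferon-activated site, was found in 4 of 22 members (18.2%) and in 8.13% of all genes of the table. The 4 members were Bst2, Ifit2, Oas1a and Samhd1. In Bst2 this match, TTCCAGGAA, overlaps the first ISRE-like match. Ifit2 thus differed from Ifit1 and Ifit3, holding the second element and no match to the first. Its match lay in the window that begins at chr19:34550444. The window that begins at chr19:34550838, before another listed start site of Ifit2, held neither element.

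At 6 months, most interferon-induced genes had a slightly higher fitted level in APP/PS1 than in WT, and no member passed the test after adjustment. The fitted log2 change was above 0 for 17 of 22 members, against 46.1% of all genes tested, and its median was 0.24 against -0.01 over all genes. None of the 22 was called by limma at a Benjamini-Hochberg adjusted p under 0.05, where 0.0441% of all genes were called. At an unadjusted p under 0.05, 7 members were higher (Lgals3bp, Bst2, Ifi27, Ifit3, Ifitm3, Isg15 and Ifit2) against 4.66% of all genes, and 0 were lower against 7.08%. In 6 members (Ifit1, Ifit2, Ifit3, Bst2, Trim30a and Lgals3bp) every APP/PS1 library lay above every WT library, as in 6.7% of all genes, and in 0 members did every APP/PS1 library lie below (9.14% of all genes). The count of 7 became 3 without WT 3, and 4 without any 1 of the 3 APP/PS1 libraries of that age.

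At 9 months the members again lay mostly above WT, and again none passed the test. The fitted change was above 0 for 21 of 22 members, all but Ifitm3, against 53.4% of all genes, with a median of 0.18 against 0.01. None was called by limma, where 0.0956% of all genes were called. At an unadjusted p under 0.05, 4 members were higher (Ifit3, Ifit2, Lgals3bp and Ifit1) against 5.55% of all genes, and 0 were lower against 4.17%. The groups did not overlap in 5 members (Ifit3, Ddx58, Cmpk2, Parp14 and Lgals3bp), all higher in APP/PS1, as in 9.28% of all genes, and 0 were lower without overlap (8.0%). The count of 4 became 1 without WT 1 or without APP/PS1 2, 2 without WT 3, and 7 without APP/PS1 1, all of 9 months.

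Averaged over both ages, 20 of 22 members had a change above 0, all but Stat2 and Ifi35, against 49.4% of all genes. Here too none was called, where 0.118% of all genes were called. Of the 22, 9 were higher at an unadjusted p under 0.05 against 5.0% of all genes, and 0 were lower against 5.42%. The smallest adjusted p was that of Lgals3bp, at 0.15. It became 0.0451 without APP/PS1 1 of 6 months, with a log2 change of 0.55, the one setting in which a member was called. The 9 were the 3 Ifit genes, Isg15, Ddx58, Bst2, Ifi27, Parp14 and Lgals3bp. In this bulk tissue, a difference in the number of cells of a type and a difference in RNA per cell cannot be told apart.

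**Figure D1:**
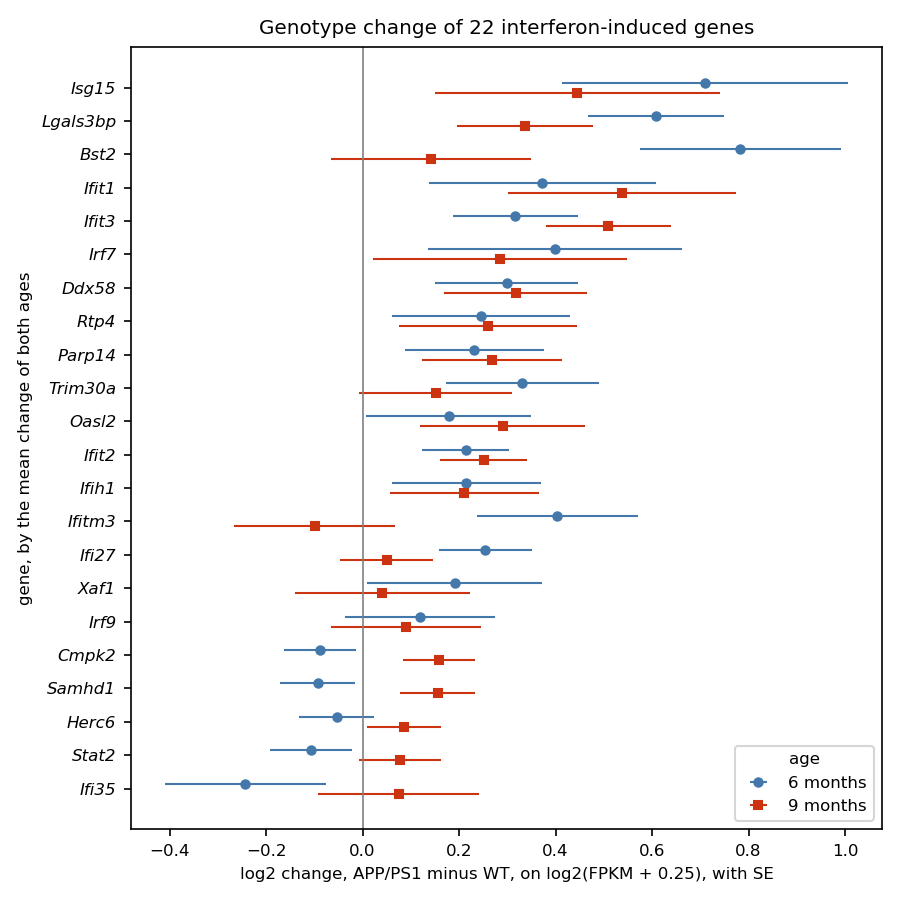
Fitted log2 change between APP/PS1 and WT, on log2(FPKM + 0.25), for the 22 members tested, with its standard error (bars), at 6 months (blue circles) and 9 months (red squares). Points lie right of 0 for 17 members at 6 months and 21 at 9 months, and Bst2 and Ifitm3 show the widest gap between the ages.

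Among the Ifit proteins, Ifit1 binds viral RNA that lacks the cap modification of host messages. Each of the 3 members of the family had a fitted change above 0 at both ages. Ifit3 measured 3.41, 3.17 and 3.31 FPKM in WT and 3.99, 3.61 and 5.01 in APP/PS1 at 6 months. At 9 months it measured 3.03, 3.71 and 3.67 FPKM in WT and 4.58, 5.94 and 4.67 in APP/PS1. All APP/PS1 libraries lay above all WT libraries of their age, and at 9 months the gap between the groups was wider than the range of the WT libraries. The log2 change was 0.32 ± 0.13 (SE) at 6 months (unadjusted p 0.0331, limma) and 0.51 ± 0.13 at 9 months (unadjusted p 0.0024, adjusted p 0.255). Ifit3 has a near-identical neighbour, Ifit3b, which was not analysed here, so its value is uncertain to the extent that fragments of the pair were divided between them.

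Ifit2 measured 3.32, 2.82 and 3.08 FPKM in WT and 3.70, 3.65 and 3.45 in APP/PS1 at 6 months. At 9 months the values were 3.03, 3.64 and 3.09 in WT and 3.60, 4.17 and 3.96 in APP/PS1. The groups did not overlap at 6 months, and at 9 months WT 2 lay just above APP/PS1 1. The log2 change was 0.21 ± 0.09 at 6 months and 0.25 ± 0.09 at 9 months (unadjusted p 0.0369 and 0.0177, limma).

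Ifit1 was expressed at a lower level, 0.841 ± 0.115 FPKM (SD, n = 3) in WT and 1.17 ± 0.23 in APP/PS1 at 6 months, and 0.811 ± 0.278 and 1.30 ± 0.464 at 9 months. Its groups did not overlap at 6 months and overlapped at 9 months, where APP/PS1 2 alone reached 1.83 FPKM. The log2 change was 0.37 ± 0.24 at 6 months and 0.54 ± 0.24 at 9 months (unadjusted p 0.142 and 0.0433, limma). All 3 Ifit genes thus had an unadjusted p under 0.05 at 9 months, 2 of 3 at 6 months and 3 of 3 over both ages.

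Isg15, a ubiquitin-like protein attached to other proteins, stood at 0.50 ± 0.298 FPKM in WT and 0.924 ± 0.143 in APP/PS1 at 6 months. Its log2 change at that age, 0.71 ± 0.30 (unadjusted p 0.0353, limma), was the second largest of the set after Bst2, but the groups overlapped because WT 1 reached 0.844 FPKM while WT 2 and WT 3 lay at 0.343 and 0.313. At 9 months the change was 0.45 ± 0.30 (unadjusted p 0.161). Herc6, the mouse ligase that attaches Isg15, lay between 3.03 and 3.66 FPKM in all 12 libraries, with changes of -0.05 and 0.09. Usp18, which removes Isg15 and restrains the interferon receptor, stayed under the limit for testing and ranged from 0.274 FPKM in APP/PS1 1 to 1.03 in APP/PS1 2, both at 9 months.

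The factors that carry the signal to DNA differed less. Stat2 measured 5.74, 5.05 and 4.53 FPKM in WT and 4.97, 4.73 and 4.41 in APP/PS1 at 6 months, and 4.80, 4.64 and 4.62 in WT and 4.77, 4.80 and 5.32 in APP/PS1 at 9 months. These groups overlapped at both ages, and the changes were -0.11 ± 0.08 and 0.08 ± 0.08 (unadjusted p 0.23 and 0.382, limma). The 2 transcripts listed for Stat2 traded places between libraries. Transcript ENSMUST00000105238 held 5.74 FPKM in WT 1 and 4.97 in APP/PS1 1 at 6 months, where ENSMUST00000085708 was listed at 0, and the other 10 libraries had the reverse order, so only the sum was used. Irf9, the DNA-binding partner of Stat2, had changes of 0.12 ± 0.16 and 0.09 ± 0.16, and Irf7, the factor that amplifies interferon production, had 0.40 ± 0.26 and 0.28 ± 0.26 at a mean level of 0.626 FPKM. For both, the groups overlapped at each age.

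Of the sensors of cytosolic nucleic acid, Ifih1 (MDA5) and Ddx58 (RIG-I), which detect double-stranded and 5′-triphosphate RNA, were tested. Ddx58 stood at 0.952 ± 0.184 FPKM in WT and 1.23 ± 0.226 in APP/PS1 at 6 months, and at 0.938 ± 0.113 and 1.23 ± 0.116 at 9 months, when the groups did not overlap. Its changes were 0.30 ± 0.15 and 0.32 ± 0.15 (unadjusted p 0.0689 and 0.0557, limma), and over both ages 0.31 ± 0.10 (unadjusted p 0.0135, adjusted p 0.373). Ifih1 had changes of 0.22 ± 0.16 and 0.21 ± 0.16 with overlapping groups. Dhx58 (LGP2), their regulator, and Zbp1, a sensor of Z-form nucleic acid, had means of 0.323 and 0.0767 FPKM and were not tested.

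The 2′-5′ oligoadenylate synthetases make the second messenger that activates RNase L. Only Oasl2, a relative, was tested, and its changes of 0.18 ± 0.17 and 0.29 ± 0.17 had unadjusted p-values of 0.32 and 0.118 (limma). Oas1a had a mean of 0.303 FPKM and Oas2 of 0.106. The GTPase Mx1, which blocks incoming viruses, lay between 0.00256 and 0.114 FPKM. Across the 8 members under the limit, group means were higher in APP/PS1 for 7 at 6 months (all but Dhx58) and for 8 at 9 months. Single values ran from 0 to 1.03 FPKM, and the share over all genes at such levels was not computed. Some of these means rested on 1 library: Oas2 at 6 months on APP/PS1 1 (0.253 FPKM), and Zbp1 on APP/PS1 3 (0.191 FPKM at 6 months and 0.318 at 9 months).

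**Figure D2:**
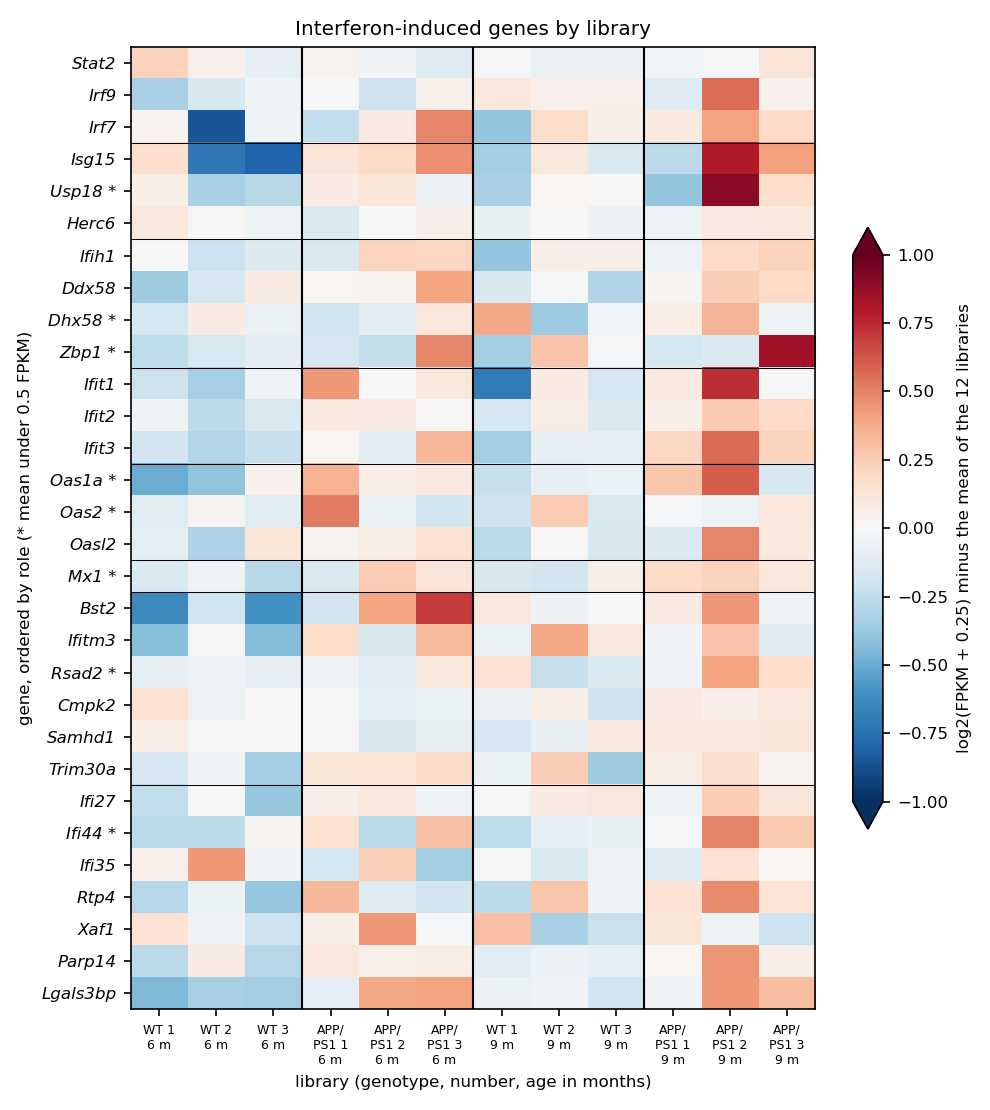
Level of each of the 30 matched members (rows, ordered by role, an asterisk marking a mean under 0.5 FPKM) in each of the 12 libraries (columns), as log2(FPKM + 0.25) minus that gene's mean over the libraries, with red above and blue below the mean. The column of APP/PS1 2 at 9 months holds the highest value for 10 of the 22 members tested.

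Among the proteins that restrict viruses at membranes, Bst2 (tetherin), which holds budding virus at the cell surface, had genotype groups that did not overlap at 6 months and overlapped at 9 months. It measured 1.67, 2.34 and 1.70 FPKM in WT and 2.37, 3.66 and 4.59 in APP/PS1 at 6 months. At 9 months it measured 2.97, 2.61 and 2.73 in WT and 2.92, 3.77 and 2.64 in APP/PS1. At 6 months WT 2 and APP/PS1 1 lay close together, and at 9 months 2 of the 3 APP/PS1 libraries lay within the WT range. Every WT library of 9 months lay above every WT library of 6 months. The genotype change was 0.78 ± 0.21 at 6 months (unadjusted p 0.00306, adjusted p 0.205, limma) and 0.14 ± 0.21 at 9 months (unadjusted p 0.506), and the change with age in WT was 0.50 ± 0.21 (unadjusted p 0.0347). The difference between the genotype changes at the ages was -0.64 ± 0.29 (unadjusted p 0.0514, adjusted p 0.446), so it was not shown that they differ.

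Ifitm3, which blocks virus entry from endosomes and is also known as a modulator of gamma-secretase, likewise had its lowest group mean in WT at 6 months, but its highest in WT at 9 months. The 6-month values were 5.22, 6.98 and 5.19 FPKM in WT and 8.05, 6.31 and 8.90 in APP/PS1. At 9 months they were 6.75, 9.37 and 7.62 in WT and 6.92, 8.68 and 6.48 in APP/PS1. The groups overlapped at both ages. The genotype change was 0.40 ± 0.17 at 6 months (unadjusted p 0.0336, limma) and -0.10 ± 0.17 at 9 months, the change with age in WT was 0.43 ± 0.17 (unadjusted p 0.0247), and the difference between the genotype changes was -0.50 ± 0.24 (unadjusted p 0.0559, adjusted p 0.45).

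Ifi27, a small membrane protein, had the highest level of the set, at a mean of 15.2 FPKM. It measured 12.7, 14.9 and 11.5 FPKM in WT and 15.8, 16.2 and 14.5 in APP/PS1 at 6 months, and 14.9, 16.0 and 16.4 in WT and 14.6, 18.0 and 16.4 in APP/PS1 at 9 months. WT 3 and WT 1 at 6 months were the lowest of the 12, and the genotypes overlapped at each age. Its genotype change was 0.25 ± 0.10 at 6 months (unadjusted p 0.0229, limma) and 0.05 ± 0.10 at 9 months. With the highest of its 6 listed transcripts alone in place of their sum, the change at 6 months was 0.06 (unadjusted p 0.568).

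Choroid plexus markers were also lowest in WT at 6 months, the group in which Bst2, Ifitm3 and Ifi27 were lowest. That order was not particular to them. Irf9, Irf7, Isg15, Ifih1, Ifit2, Ifit3, Trim30a, Rtp4, Parp14 and Lgals3bp also had their lowest group mean in WT at 6 months. The mean log2(FPKM + 0.25) of the 12 markers was -0.72, 1.96 and -0.20 in WT at 6 months, 0.59, 2.02 and 1.98 in APP/PS1 at 6 months, 1.84, 1.97 and 2.06 in WT at 9 months, and 1.14, 0.69 and 1.83 in APP/PS1 at 9 months. At 6 months all 12 had a higher fitted level in APP/PS1, against 46.1% of all genes. At 9 months all 12 had a lower one, where 53.4% of all genes were higher. With this mean as a covariate in the model, Bst2 had a change at 6 months of 0.57 (unadjusted p 0.0239, limma) and an age change in WT of 0.21 (unadjusted p 0.40), and the difference between its genotype changes was -0.29 (unadjusted p 0.375). In the same model, Ifitm3 had a change at 6 months of 0.34 (unadjusted p 0.121) and Ifi27 of 0.18 (unadjusted p 0.122). The changes at 6 months in that model were 0.36 for Ifit3, 0.29 for Ifit2, 0.57 for Ifit1, 0.88 for Isg15 and 0.51 for Lgals3bp. None of the 12 markers was at 0 in any library. The mean log2(FPKM + 0.25) of 8 endothelial markers was 2.85 to 2.88 in WT and 2.85 to 3.04 in APP/PS1 at 6 months. At 9 months it was 2.95 to 3.10 in WT and 2.99 to 3.07 in APP/PS1. From 6 to 9 months in WT all 8 rose in fitted level, against 48.6% of all genes. Of these, 4 had an unadjusted p under 0.05, against 4.92% (limma). The part of choroid plexus or endothelial content in the levels of these members was not tested.

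Cmpk2, an enzyme that makes nucleotides, and Samhd1, which removes them and thereby limits viral DNA synthesis, had group means in the opposite order at the ages. Cmpk2 measured 7.31, 6.34 and 6.54 FPKM in WT and 6.50, 6.16 and 6.26 in APP/PS1 at 6 months, and 6.28, 6.87 and 5.64 in WT and 7.02, 6.89 and 7.11 in APP/PS1 at 9 months. The APP/PS1 libraries lay above all WT libraries at 9 months, by little over WT 2, and overlapped them at 6 months, where WT 1 was the highest of the 12. The change was -0.09 ± 0.07 at 6 months and 0.16 ± 0.07 at 9 months, a difference of 0.25 ± 0.11 (unadjusted p 0.0392, adjusted p 0.41, limma).

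Samhd1 measured 3.87, 3.66 and 3.69 FPKM in WT and 3.72, 3.27 and 3.48 in APP/PS1 at 6 months, and 3.25, 3.50 and 3.96 in WT and 3.96, 3.98 and 4.04 in APP/PS1 at 9 months. The 3 APP/PS1 libraries of 9 months lay within a narrow band above those of 6 months, while WT 3 at 9 months reached the same level. The change with age was 0.18 ± 0.08 in APP/PS1 (unadjusted p 0.039, limma), and the difference between the genotype changes was 0.25 ± 0.11 (unadjusted p 0.0456, adjusted p 0.431). Trim30a, a ubiquitin ligase, had non-overlapping groups at 6 months, with 0.471 ± 0.0766 FPKM in WT and 0.654 ± 0.0229 in APP/PS1 (change 0.33 ± 0.16, unadjusted p 0.0602). Rsad2 (viperin), an antiviral enzyme, had a mean of 0.344 FPKM and was not tested.

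**Figure D3:**
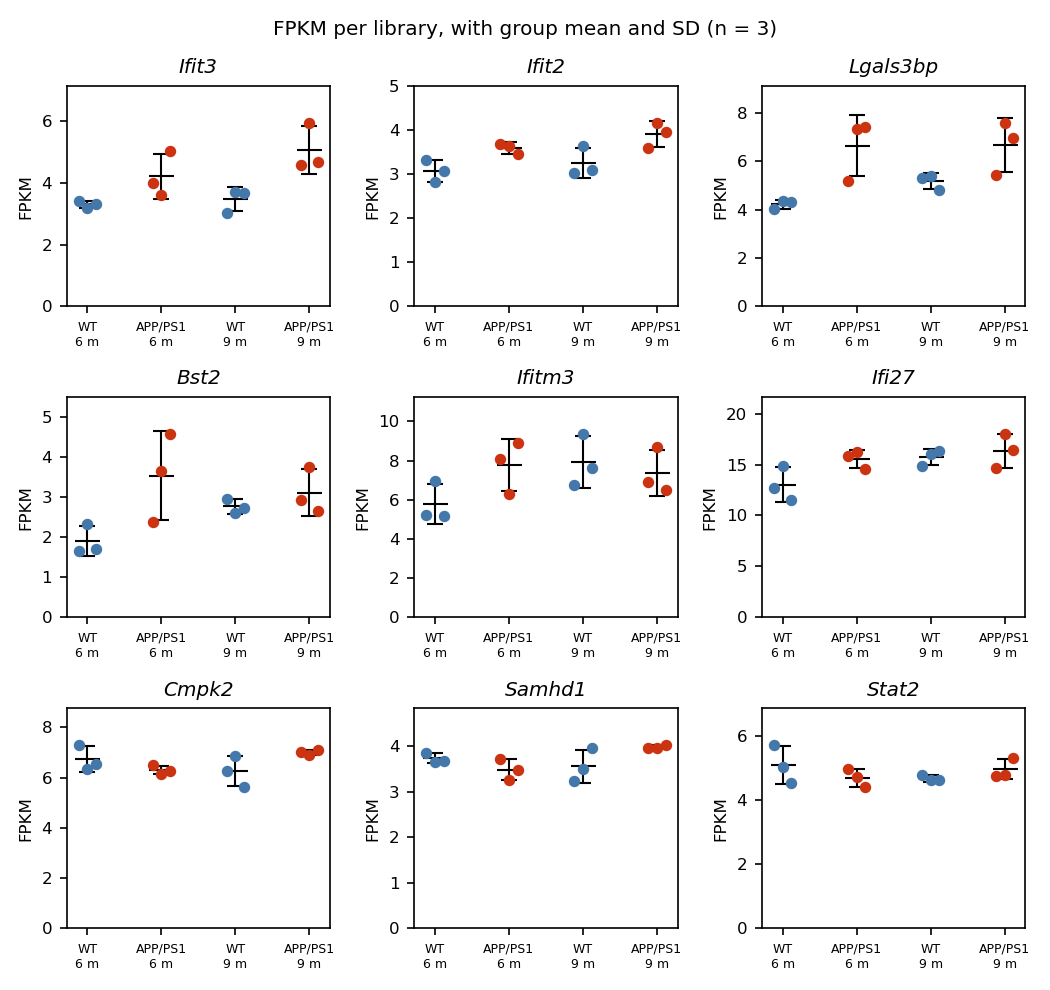
FPKM of 9 members in each library (points; WT blue, APP/PS1 red), with group mean and SD (horizontal marks and bars, n = 3), by genotype and age in months; every axis starts at 0. The Ifit3 points of APP/PS1 lie above those of WT at both ages, and the Bst2 points do so at 6 months alone.

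Lgals3bp, a secreted glycoprotein that binds galectins, had the smallest unadjusted p of the members at 6 months. It measured 4.02, 4.36 and 4.32 FPKM in WT and 5.21, 7.35 and 7.41 in APP/PS1 at 6 months, and 5.32, 5.41 and 4.80 in WT and 5.43, 7.60 and 6.95 in APP/PS1 at 9 months. The groups did not overlap at either age, but APP/PS1 1 was the nearest to the WT libraries at both ages and at 9 months exceeded WT 2 only marginally. The change was 0.61 ± 0.14 at 6 months (unadjusted p 0.00123, adjusted p 0.164, limma) and 0.34 ± 0.14 at 9 months (unadjusted p 0.0358, adjusted p 0.477). Its 4 listed transcripts were divided differently in APP/PS1 2 at 6 months, where ENSMUST00000144529 held 4.92 FPKM and the usual main transcript ENSMUST00000043722 held 2.28. With the highest transcript alone the change was 0.07 at 6 months (unadjusted p 0.842) and 0.40 at 9 months (unadjusted p 0.257).

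Of the remaining members, Parp14, an ADP-ribosyltransferase, had changes of 0.23 ± 0.14 and 0.27 ± 0.14 with non-overlapping groups at 9 months, and an unadjusted p over both ages of 0.0328 (limma). Rtp4, a chaperone of membrane receptors, had 0.25 ± 0.18 and 0.26 ± 0.18. Xaf1, a pro-apoptotic protein, had 0.19 ± 0.18 and 0.04 ± 0.18. Ifi35 was the member with the lowest change at 6 months, -0.24 ± 0.17 (unadjusted p 0.172), where WT 2 held its highest value, 1.81 FPKM. Ifi44 had a mean of 0.18 FPKM and was not tested. Groups of Rtp4, Xaf1 and Ifi35 overlapped at each age.

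With age in WT, the members split between higher and lower levels. Between 6 and 9 months in WT, 13 of 22 were higher, against 48.6% of all genes, with a median change of 0.06. None was called by limma (0.0441% of all genes), and 3 (Ifi27, Ifitm3 and Bst2) were higher at an unadjusted p under 0.05, against 4.92%, and 0 were lower, against 5.33%. Groups did not overlap for 3 members, Irf9, Bst2 and Lgals3bp, all higher at 9 months, against 8.55%, and 0 were lower without overlap, against 9.17%. In APP/PS1, 18 of 22 were higher at 9 months, against 55.7% of all genes, with a median of 0.07 that was -0.00295 without APP/PS1 2 of 9 months, and Samhd1 alone was higher at an unadjusted p under 0.05, against 8.45%, with 0 lower, against 4.68%. None was called by limma, and neither was any other gene (0.0%). The groups did not overlap for Cmpk2 and Samhd1, both higher, against 10.8%, and 0 were lower without overlap, against 6.73%.

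The genotype change at 9 months minus that at 6 months was above 0 for 12 of 22 members, against 55.3% of all genes, with a median of 0.02. The median was -0.08 without APP/PS1 2 and -0.01 without WT 1, both of 9 months. None was called by limma, where 0.00736% of all genes were called, and 2 members, Cmpk2 and Samhd1, had an unadjusted p under 0.05, both above 0, against 6.87%, and 0 below 0, against 4.41%. It was not shown, for any member, that the genotype change differed between the ages.

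The joint level of the members varied among libraries of a group. The mean log2(FPKM + 0.25) of the 22 members was 1.11, 1.08 and 1.04 in WT and 1.27, 1.31 and 1.38 in APP/PS1 at 6 months. At 9 months it was 1.09, 1.27 and 1.15 in WT and 1.25, 1.56 and 1.34 in APP/PS1. At 6 months the genotypes did not overlap, and at 9 months WT 2 lay above APP/PS1 1. APP/PS1 2 at 9 months had the highest of the 12 values for 10 of 22 members, against 8.4% of all genes tested.

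The same library had the highest level of microglial markers. The mean log2(FPKM + 0.25) of 8 microglial markers was 3.73, 3.44 and 3.46 in WT and 3.72, 3.69 and 3.75 in APP/PS1 at 6 months, and 3.51, 3.58 and 3.54 in WT and 3.80, 3.99 and 3.71 in APP/PS1 at 9 months. Their summed level was 122 to 146 FPKM in WT and 140 to 151 in APP/PS1 at 6 months, and 123 to 139 and 151 to 183 at 9 months, and none was at 0. At 9 months all 8 had a higher fitted level in APP/PS1 (median 0.30), against 53.4% of all genes. Of these, 5 had an unadjusted p under 0.05, against 5.55% (limma). At 6 months 7 of 8 were higher (median 0.20), against 46.1%. Of the 8, 3 were higher at an unadjusted p under 0.05, against 4.66%, and 1 was lower, against 7.08% (limma).

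Among other glia, astrocyte markers had a higher mean in APP/PS1 at both ages, while the summed levels of oligodendrocyte markers overlapped between the genotypes. The mean log2(FPKM + 0.25) of 6 astrocyte markers was 5.84 to 5.90 in WT and 5.97 to 6.06 in APP/PS1 at 6 months, and 5.83 to 5.99 and 6.06 to 6.11 at 9 months, with no overlap at either age. Their summed level was 479 to 506 FPKM in WT and 527 to 550 in APP/PS1 at 6 months, and 485 to 532 and 559 to 604 at 9 months. Of the 6, 4 had a higher fitted level in APP/PS1 at each age, against 46.1% and 53.4% of all genes. The other 2 had a lower one. The median change of the 6 markers was only 0.03 at 6 months and 0.05 at 9 months, while the largest was 0.67 and 1.06. The largest at 9 months was that of Gfap, a filament protein abundant in reactive astrocytes (1.06 ± 0.14, adjusted p 0.0138, limma). All 6 oligodendrocyte markers had a higher fitted level in APP/PS1 at 9 months (median 0.14), against 53.4% of all genes. Of these, 1 had an unadjusted p under 0.05, against 5.55% (limma). At 6 months 3 of 6 were higher (median -0.02), against 46.1%, and 1 was lower at an unadjusted p under 0.05, against 7.08% (limma). Their summed level was 700 to 760 FPKM in WT and 688 to 731 in APP/PS1 at 6 months, and 631 to 796 and 759 to 815 at 9 months. No marker of either list was at 0. The part of microglial, astrocyte or oligodendrocyte content in the levels of the interferon-induced genes was not tested.

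**Figure D4:**
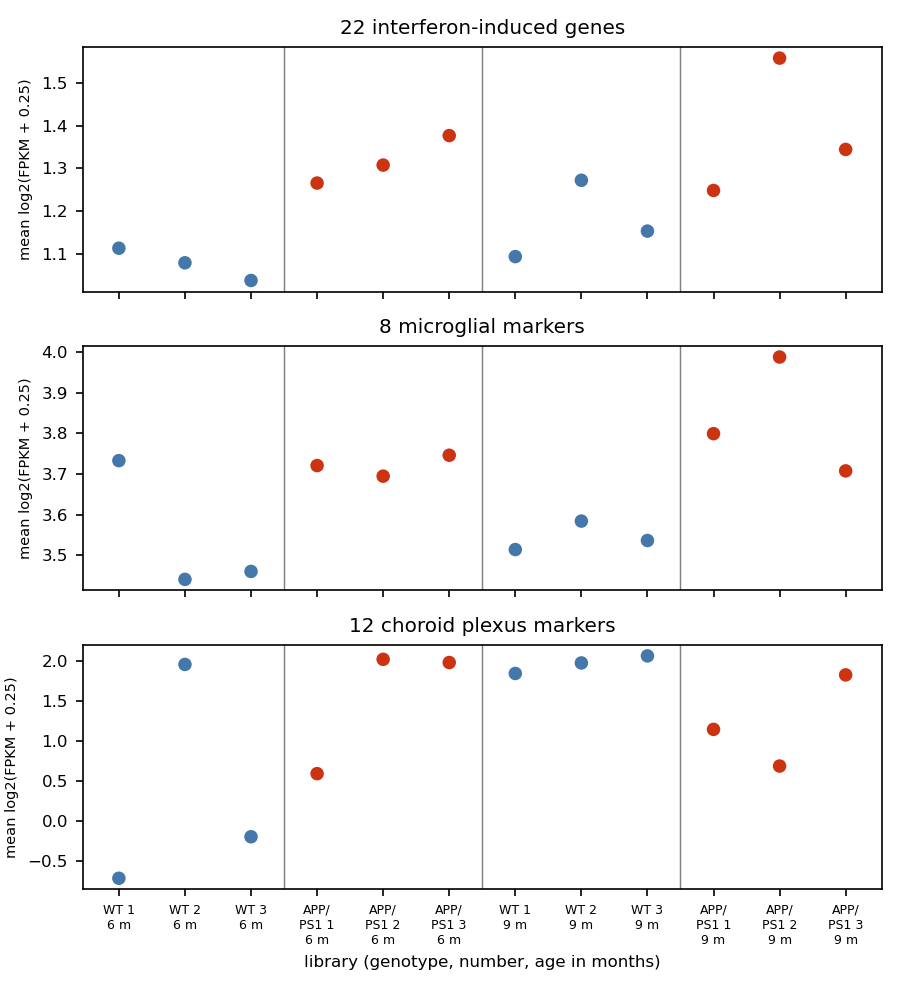
Mean log2(FPKM + 0.25) in each of the 12 libraries (WT blue, APP/PS1 red) of the 22 members tested (top), 8 microglial markers (middle) and 12 choroid plexus markers (bottom). APP/PS1 2 at 9 months is highest in the upper panels, at 1.56 and 3.99, and WT 1 and WT 3 at 6 months are lowest in the bottom panel, at -0.72 and -0.20.

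The genes that make and relay the signal were examined as a list of 30, of which 24 were tested. The interferon genes Ifnb1, Ifna4 and Ifng were listed at 0 in all 12 libraries. The receptor subunits Ifnar1 and Ifnar2 were expressed, with means of 12.3 and 5.08 FPKM. Of the genes tested, 16 of 24 had a higher fitted level in APP/PS1 at 6 months (median 0.02), against 46.1% of all genes. At 9 months 13 of 24 did (median 0.01), against 53.4%. None was called by limma at either age, where 0.0441% and 0.0956% of all genes were called. At an unadjusted p under 0.05, 3 were higher and 1 lower at 6 months, against 4.66% and 7.08% of all genes. At 9 months 3 were higher and 2 lower, against 5.55% and 4.17%. The difference between the lists was not tested.

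At 6 months the higher 3 were Adar, which edits double-stranded RNA (0.22 ± 0.06, unadjusted p 0.0054, limma), Trex1, which degrades cytosolic DNA (0.33 ± 0.13, unadjusted p 0.0231), and Socs1, an inhibitor of Jak kinases (0.48 ± 0.22, unadjusted p 0.0491). Ticam1 (TRIF), the adaptor of the RNA receptor Tlr3, was the lower gene (-0.30 ± 0.09, unadjusted p 0.00538). At 9 months the higher genes included Unc93b1, which brings nucleic-acid-sensing Toll-like receptors to endosomes (0.43 ± 0.14, unadjusted p 0.012), and Irf8, a transcription factor of microglia and other myeloid cells (0.57 ± 0.22, unadjusted p 0.0228). The lower genes were Traf3, a signalling adaptor (-0.20 ± 0.07, unadjusted p 0.0131), and Socs3, a cytokine signalling inhibitor (-0.38 ± 0.16, unadjusted p 0.0393).

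A list of 50 other interferon-induced genes, of which 47 were matched and 31 tested, lay mostly higher in APP/PS1. The fitted change was above 0 for 25 of 31 at 6 months (median 0.14), against 46.1% of all genes. At 9 months it was above 0 for 28 of 31 (median 0.16), against 53.4%. None was called by limma at either age, where 0.0441% and 0.0956% of all genes were called. At an unadjusted p under 0.05, 4 were higher at 6 months against 4.66% of all genes, and 2 at 9 months against 5.55%, a share near that of all genes. At either age 0 were lower, against 7.08% of all genes at 6 months and 4.17% at 9 months. The groups did not overlap for 8 genes at 6 months (6.7% of all genes) and 7 at 9 months (9.28%), all higher in APP/PS1.

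Closest to the threshold in that list was Irgm1, an immunity-related GTPase of autophagy and pathogen defence. It measured 3.92, 2.84 and 2.96 FPKM in WT and 5.02, 4.41 and 4.64 in APP/PS1 at 6 months, and 2.97, 3.53 and 4.18 in WT and 4.71, 5.73 and 5.13 in APP/PS1 at 9 months. Its groups did not overlap at either age. The change was 0.51 ± 0.14 at 6 months and 0.52 ± 0.14 at 9 months (unadjusted p 0.00321 and 0.00286, limma), and over both ages 0.52 ± 0.10 (adjusted p 0.0932).

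Ifi27l2a, a relative of Ifi27, had a larger change at a lower level. It measured 0.234, 0.943 and 0.443 FPKM in WT and 1.72, 1.46 and 0.976 in APP/PS1 at 6 months, and 1.10, 1.08 and 1.46 in WT and 1.65, 3.02 and 1.68 in APP/PS1 at 9 months. Groups did not overlap at either age, and WT at 6 months lay below WT at 9 months. The change was 1.12 ± 0.32 at 6 months (unadjusted p 0.00489, limma) and 0.65 ± 0.32 at 9 months (unadjusted p 0.0661). Gbp3, a guanylate-binding protein (0.69 ± 0.24, unadjusted p 0.0162), and Nampt, an enzyme of NAD synthesis (0.10 ± 0.04, unadjusted p 0.0448), were the others at 6 months. Psmb8, a catalytic subunit of the immunoproteasome, was the other at 9 months (0.23 ± 0.10, unadjusted p 0.0352). Uba7, the enzyme that activates Isg15 for attachment, had a change over both ages of 0.31 ± 0.13 (unadjusted p 0.0348).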

How the data were processed

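Brain RNA of 12 long RNA libraries (4 groups of 3) was analysed. The deposited mRNA table holds FPKM per transcript, computed by the authors, and no counts. The submitters' processing notes list Bowtie 0.12.2 and the build mm8 without saying what each was used for. What computed the FPKM, and on which annotation, is not given in the sources used here. FPKM of 48717 transcripts were summed to 22154 genes, and 98.1% of gene IDs matched a table of mouse gene names. A mean of at least 0.5 FPKM was required to enter limma 3.58.1 (R 4.3.3; lmFit, contrasts.fit, eBayes with a trend) on log2(FPKM + 0.25), in 1 model of 4 group means. On this scale the log2 change of a gene with low values is understated. Tests were two-sided, with Benjamini-Hochberg adjustment over all 13593 genes and a threshold of 0.05. The script was tested on simulated data.

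The members and all lists were chosen with earlier results of these data known. Values in every library were given for members with an unadjusted p under 0.05 at 1 age and no overlap of the genotypes, for those with such a p for age or for the difference between ages, and for the 5 members of highest mean FPKM. From each further list, up to 6 genes per genotype comparison were named by p, and 1 gene so selected is not reported here. Alternatives were another pseudocount (0.1 or 1), no filter or a mean of at least 1 FPKM, scaling of libraries, the compared groups alone, a replicate block, a choroid plexus covariate and leaving out each library. Promoters were taken from RefSeq (GRCm38.p6), and no coordinates were transferred between builds. The mean of a group is given with its SD (n = 3). Deviations from the group means correlated at -0.12 to 0.126 between same-numbered libraries of different groups. Between differently numbered libraries they correlated at -0.151 to 0.163, so the numbers were not taken as pairs.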

Additional observations from a re-analysis of the deposited data

How the results depend on the processing

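None of the 12 single-gene changes recomputed and no median of a genotype change turned its sign under any alternative run. The median change with age in APP/PS1 (0.07) was -0.00295 without APP/PS1 2 of 9 months. The median difference between the genotype changes (0.02) ran from -0.08 to 0.09 over the left-out libraries, and was -0.08 with the choroid plexus covariate and -0.00204 with scaled libraries. In the comparisons at a single age, in the age comparisons and in the difference between ages no member was called under any of them. Over both ages, leaving out single libraries gave 0 to 1 members called. The count of members higher at an unadjusted p under 0.05 was 3 to 8 at 6 months and 1 to 7 at 9 months when single libraries were left out, beside 7 and 4. With the highest transcript alone in place of the sum, an alternative chosen after seeing the data, the counts were 4 and 2 of 21 members tested; the cause was not tested. The median change ran from 0.21 to 0.25 at 6 months and from 0.14 to 0.28 at 9 months over the left-out libraries. With the replicate number as a block, 6 members were higher at an unadjusted p under 0.05 at 6 months, 3 at 9 months and 10 over both ages, with 0 called, and the smallest adjusted p over both ages was 0.143; the numbers are not known to pair the samples. A fit of only the groups compared could not be made for both ages together or for the difference between ages. The depth is unknown, and the 3 libraries per group limit the precision; values under 0.5 FPKM were not tested.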
